A study of Glycyrrhiza uralensis with 15 samples.

Results

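The isoform table of this *Glycyrrhiza uralensis* (licorice) study held 157 loci with 8 or more isoforms each, out of 38933 loci in all. A locus was taken as an isoform ID without its last dot and number, and an isoform as 1 row of the deposited table. The rule asked for 10 or more isoforms, or for 8 or more where fewer than 200 loci reached 10. Only 73 loci reached 10, so the bound of 8 applied. The 157 loci held 1600 of the 53338 isoform rows (3.0%) and 1457248 reads, 2.89% of the total. All 157 carried IDs of the form ONT.n, which 15650 loci had. The 23283 loci with reference IDs (Glyur) held at most 6 isoforms each.

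One gene can give several RNAs that differ in their start, their splicing or their end. In plants, retained introns and alternative splice sites are common forms of such variation, and splicing is known to respond to water shortage. A read of full-length cDNA spans most or all of a transcript, so it can be assigned to an isoform rather than to a gene alone. A locus with many isoforms may use most of them or may put nearly all of its reads into 1, and these are separate measures from its total level.

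RNA came from whole 45-day plants in 5 groups of 3 libraries. CK was kept at 65 to 75% of saturating soil moisture. D was droughted at 35 to 45%. DB had the same drought with the bacterium *Bacillus pumilus* G5, and DSi had it with 2 mM silicon (Si). DBSi was droughted and received G5 and Si together, and the labels repeat neither a moisture range nor a dose for it. Every group other than CK was therefore droughted, and no group with G5 or Si at full water is analysed here. Roots and shoots were not separated, so fewer cells of a type and less RNA per cell cannot be told apart. Nothing in the labels says that libraries of a group came from separate pots, and p-values may then measure technical spread.

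The deposited values were read counts scaled to a common library total (CPM), and 1 read was worth 0.247 to 0.329 CPM in the 15 libraries, which held 3039422 to 4043823 reads. Each library had reads at all 157 loci, and 154 loci had 30 or more reads in every library. The files pair no ID with a gene name, so functions are not given. Matching reads exactly over the 15 libraries tied 116 of the loci to 1 reference gene each in the gene table, and 5 to a row of their own. In 19 loci the isoforms were divided between 2 or more gene rows with every isoform matched, in 4 some isoforms were matched, and 13 loci were not matched. Of the 116, 72 reference genes also had rows under their own ID in the isoform table, which the locus rule leaves out. Those rows held 10% or more of the gene's reads in 13 cases and were higher than the locus's top isoform in 4, among them ONT.7351 and ONT.16838. Isoforms of overlapping genes and of near-identical copies could have been assigned to either, and values for divided loci are uncertain in this respect.

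1 library stood apart from its group in loci that later results turn on. Among the 1146 loci of the whole table called higher in DBSi than in D, DSi-1 was the highest of the 3 DSi libraries in 74.9%, against 36.0% of all 26780 loci tested. DSi-1 lay above all 3 D libraries in 16 of the 18 such loci with 8 or more isoforms, DSi-2 in 9 and DSi-3 in 6. Over the 1146 loci the shares were 86.8, 56.5 and 46.95% in that order, so the 18 loci were not particular in this. Over all loci tested they were 31.7, 27.0 and 29.3%. The called loci were chosen for low values in the same D libraries, which raises these shares for any library. Its part in the DSi results was not tested beyond leaving the library out.

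The 157 loci used several isoforms, but not all of those listed. The share of a locus's reads held by its top isoform, chosen over all libraries, had a median of 52.6% (quartiles 41.8 and 68.1%). The effective number of isoforms is the exponential of the Shannon entropy of the shares. In reads pooled over the 15 libraries it had a median of 3.74, and effective numbers of loci given below are also of pooled reads. Within single libraries its median was lower, at 2.88 (D-1) to 3.28 (DBSi-2). The number at 5% or more of the pooled reads had a median of 3. Top isoforms together held 63.4% of the reads of these loci, and the first 3 ranks held 88.5%. Of the 1600 isoform rows, 581 (36.3%) held under 1% of their locus's reads, 587 had reads in all 15 libraries, and 197 had reads in a single library.

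Loci with fewer isoforms were lower in level and more dominated by 1 isoform. Median mean total was 93.6 CPM at 8 or more isoforms, 44.8 CPM at 4 to 7 and 16.1 CPM at 2 to 3. Median top shares were 52.6, 70.5 and 89.6% in that order. More reads reveal more isoforms, so the number of isoforms was also computed for 30 reads drawn from each locus (its expected value). That number had medians of 4.36, 2.69 and 1.66, over the 154, 1194 and 2860 loci with 30 or more reads in every library. It cannot exceed the rows of a locus, which define the classes, so their order was in part set in advance. The part of depth is not decided by it. The number of rows chose the loci, and these differences are a description. The step at the bound was small. The 56 loci with exactly 8 isoforms had a median of 77.7 CPM, a top share of 56.0% and an effective number of 3.48. The 91 loci with exactly 7 had 64.5 CPM, 56.2% and 3.14. Across the 157 loci, Spearman's rho between rows and mean total was 0.24 and between rows and effective number 0.37. All points share the same 15 libraries, and rows and level share the reads that reveal an isoform.

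**Figure D1:**
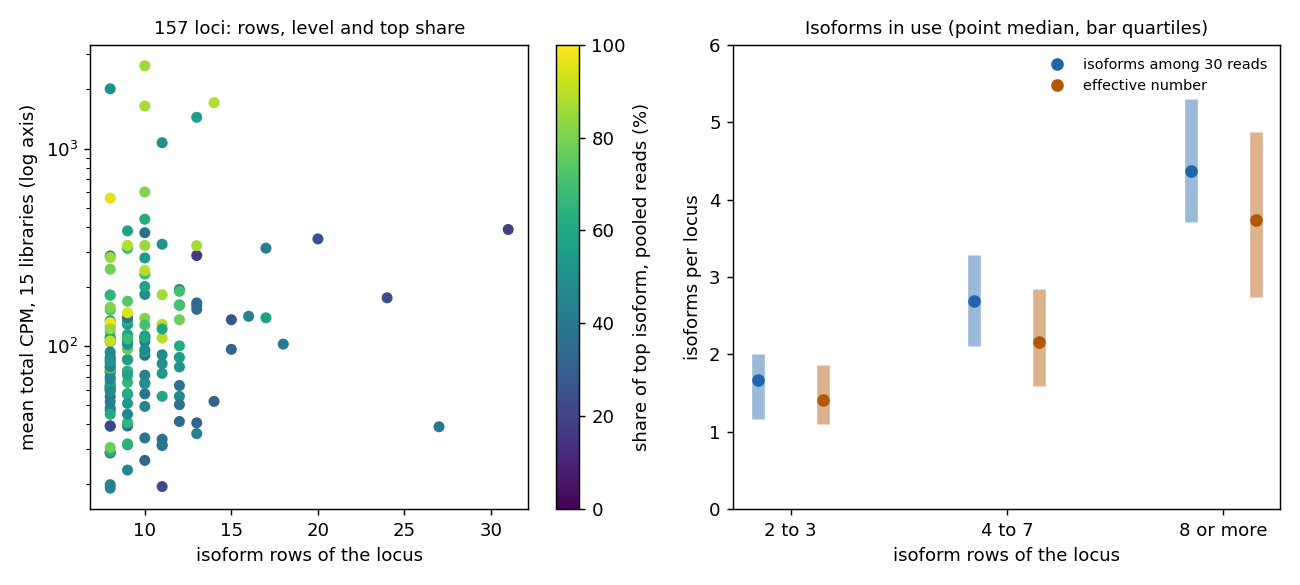
Left, each point is 1 of the 157 loci, with its isoform rows on the x axis, its mean total CPM on a log y axis and the share of its top isoform in pooled reads as colour. Right, median (point) and quartiles (bar) of the expected number of isoforms among 30 reads and of the effective number in pooled reads. Loci are those with 2 to 3, 4 to 7 and 8 or more isoforms, and the medians rise from 1.66 to 4.36 and from 1.41 to 3.74.

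The loci with the most rows differed widely in how they used them. ONT.7442 had 31 rows and ONT.2304 had 24, and their effective numbers were 11.3 and 11.9 in pooled reads. Their means over single libraries were lower, at 9.56 and 10.7. In ONT.2304 the 15 libraries ranged from 9.27 to 12.4 isoforms among 30 reads. ONT.19824 had 20 rows, an effective number of 9.23 and a top share of 9.72 to 32.1%, and its reads were divided between a reference gene (66.7%) and an ONT row (33.3%). ONT.20686 had 27 rows but an effective number of 5.39 (mean over single libraries 4.06), at a mean of 38.9 CPM. ONT.20896 had 18 rows and an effective number of 8.18. The lowest mean top shares were 15.5% in ONT.7442, 16.0% in ONT.640 and 20.8% in ONT.9032, whose isoforms were divided among 3 reference genes.

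At the other end, ONT.20234 put a mean of 97.8% of its reads into 1 of 8 isoforms (range 88.9 to 100%), ONT.11238 95.4% and ONT.9770 94.4%. The 5 loci with the highest mean totals were ONT.17325 (2626 CPM), ONT.16130 (2007 CPM), ONT.17809 (1707 CPM), ONT.6194 (1642 CPM) and ONT.15054 (1439 CPM). ONT.17325, ONT.17809 and ONT.6194 had mean top shares of 84.9 to 87.9%, while ONT.16130 and ONT.15054 stood at 51.5 and 61.3%. ONT.15054 was divided between 2 reference IDs that held 56.2 and 43.8% of its reads, so its top share is in part a ratio between 2 gene rows. Its totals ran from 226 CPM in DB-3 to 4821 CPM in CK-2.

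Medians over the 157 loci differed little in top share and more in total level. The median top share per library averaged 53.2 ± 1.71% in CK and 55.3 ± 1.52% in D (SD, n = 3 libraries). DB stood at 54.0 ± 1.92%, DSi at 55.6 ± 0.74% and DBSi at 54.3 ± 1.69%. The ranges of CK, D, DB and DBSi overlapped, and the lowest DSi library (55.1%) lay just above the highest of CK (54.7%). The median number of isoforms among 30 reads was 4.4 ± 0.12, 4.35 ± 0.05, 4.37 ± 0.01, 4.41 ± 0.13 and 4.52 ± 0.05 in the same order. The DBSi libraries (4.46 to 4.56) lay above every D (4.3 to 4.4) and DB (4.36 to 4.38) library but overlapped CK and DSi, and no test was run on these medians. The 157 loci took 2.83 to 2.97% of the reads in every group's mean. Median total CPM was 85.6 ± 3.39 in CK, and the droughted groups stood at 81.1 ± 12.1 (D), 94.2 ± 1.05 (DB), 88.3 ± 7.84 (DSi) and 103 ± 9.74 (DBSi). The D and DBSi libraries overlapped, at 71.7 to 94.8 and 92.2 to 110 CPM. Of the 157 loci, 64.3% were higher in DB than in D, against 45% of all loci tested and 55.1% of those with 4 to 7 isoforms. For DBSi against D the share was 62.4%, against 46.1% of all loci and 55.5% of those with 4 to 7 isoforms. Both comparisons share the D libraries. DBSi had the highest mean total in 58 of the 157 loci, CK in 36, DB in 34, D in 15 and DSi in 14. This was not counted over all loci, so the order cannot be read as particular to these.

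Differences in total level were concentrated in the comparison of DBSi with D, which asks what both additions did in droughted plants. There, 20 of the 157 loci passed limma's test on log2(CPM + 1) (Benjamini-Hochberg adjusted p under 0.05 over all 26780 loci), 18 higher and 2 lower, against 5.71% called over the whole table (4.28% higher and 1.43% lower). That is 12.7% of these loci and 10.7% of the 1464 loci tested with 4 to 7 isoforms, so the share was near that of loci with somewhat fewer isoforms. All 20 had DBSi and D libraries that did not overlap. A call with 3 libraries a group makes that likely, and the share without overlap over the whole table was not computed. The median difference over the 157 was 0.10 on the log2 scale, against -0.05 over all loci. The count of 20 fell to 11 without D-1, to 11 without D-3, to 12 without DBSi-2 and to 13 without DBSi-3.

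ONT.14235 (13 isoforms, matched to Glyur000744s00021936) showed the largest rise. Its total was 178, 125 and 132 CPM in the 3 DBSi libraries and 13.5, 14.8 and 20.4 CPM in D. CK lay at 8.41 to 18.8 CPM, DB at 5.08 to 10.2 CPM and DSi at 38.9, 12.6 and 13.9 CPM. The DBSi libraries stood above all 12 others, and DSi-1 was the next highest. The ratio of means was 8.95, with a log2 difference of 3.09 ± 0.39 (SE) and an adjusted p of 0.000389 by limma. At equal read number more of its isoforms were drawn in DBSi, 7.83 ± 0.40 among 30 reads (SD, n = 3), against 6.19, 2.89 and 3.81 in the D libraries. CK-1 and DB-1 had under 30 reads at this locus, so it was left out of the test of that number.

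ONT.7442, the locus with 31 isoforms and no matched gene, rose 7.88-fold. It was read at 1349, 1030 and 1162 CPM in DBSi and at 146, 149 and 154 CPM in D. DSi-1 reached 527 CPM, while DSi-2 and DSi-3 stood at 175 and 194 CPM. CK was lower (49.2, 136 and 124 CPM) and DB was at 217, 223 and 198 CPM, so DBSi again lay above every other library. The log2 difference was 2.96 ± 0.39 (limma, adjusted p = 0.000461). The number of isoforms among 30 reads was 9.15 ± 0.58 in DBSi and 9.90 ± 0.68 in D. The isoforms did not rise equally. The mean of ONT.7442.37 went from 14.8 to 274 CPM, that of ONT.7442.1 from 23.5 to 261 CPM and that of ONT.7442.7 from 7.43 to 214 CPM, and they held 22.7, 22.2 and 18.2% of the locus in DBSi.

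ONT.13309 (13 isoforms, no matched gene) rose as well. DBSi stood at 436, 400 and 479 CPM and D at 55.6, 114 and 76.6 CPM, a ratio of 5.34. Its log2 difference was 2.46 ± 0.28 (limma, adjusted p = 0.000211). ONT.9331 had the same ratio of 5.34, from 21.7 to 116 CPM in the means. The other 14 loci that were higher had ratios of 1.66 (ONT.13299) to 3.67 (ONT.14106), with ONT.8535 at 3.41 and ONT.20861 at 2.62.

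Both loci that were lower in DBSi matched 1 reference gene. ONT.16130 (Glyur001069s00022473) was read at 1051, 845 and 1087 CPM in DBSi and at 2757, 2293 and 3230 CPM in D. CK was at 2478 to 3151 CPM, DB at 1347 to 1615 CPM and DSi at 1633 to 2561 CPM, so DBSi lay below every other library, while CK, D and the highest DSi library overlapped. It fell by 1.47 ± 0.23 on the log2 scale (limma, adjusted p = 0.00175). ONT.16838 (Glyur001232s00031533) was at 13.5, 11.1 and 9.62 CPM in DBSi, 29.8, 28.0 and 32.5 CPM in D, and 45.0, 58.6 and 48.5 CPM in CK. It fell by 1.33 ± 0.24 from D to DBSi (adjusted p = 0.00389). The rows under the reference ID, which are not counted here, held 57.6% of that gene's reads. The calls for ONT.14235, ONT.7442, ONT.16130 and ONT.16838 held in every alternative run for them, among them each library left out.

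**Figure D2:**
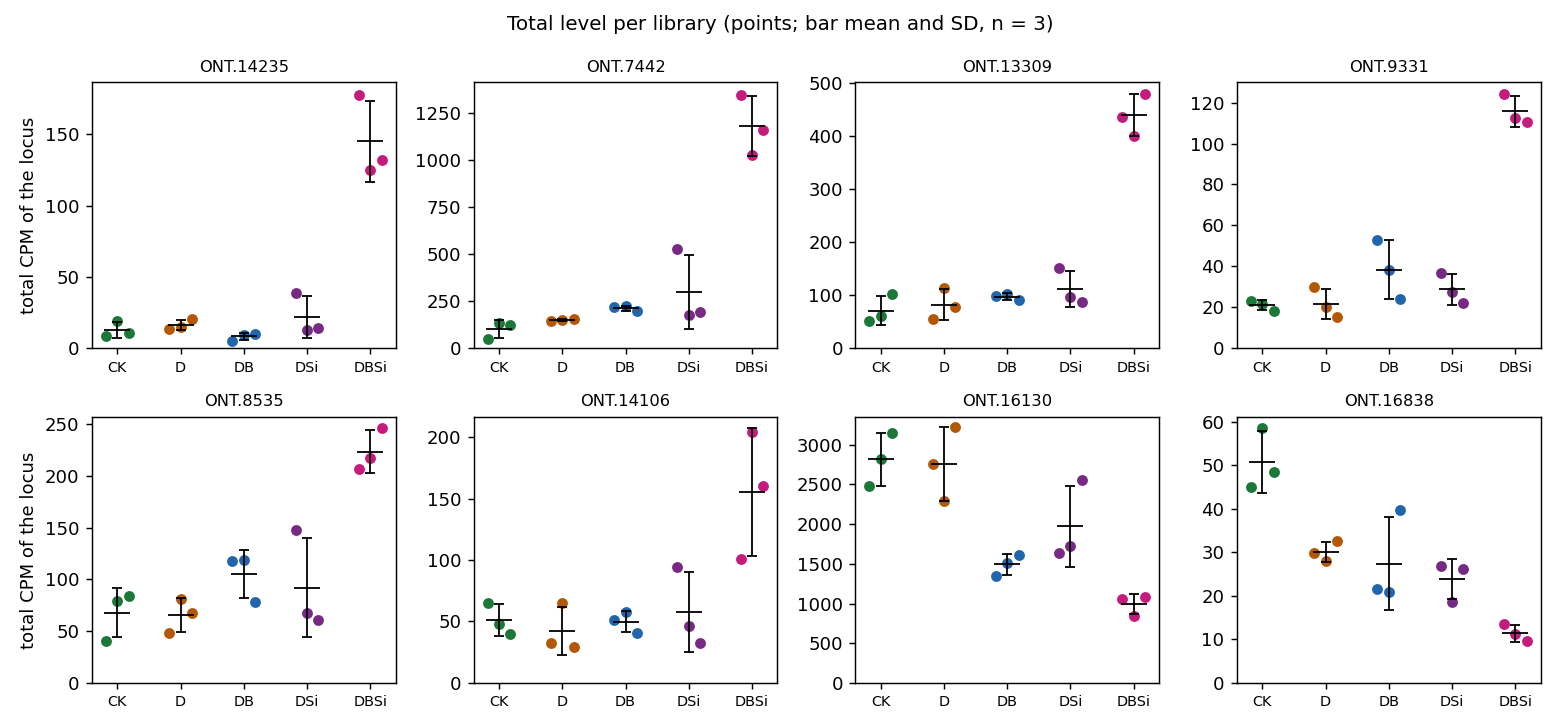
Total CPM in each library (points) with the mean and SD of each group of 3 (bars), for 6 loci called higher and 2 called lower in DBSi than in D. DBSi lies above all other libraries in the first 6 panels, DSi-1 is the highest DSi library in each of them, and DBSi lies below all other libraries in ONT.16130 and ONT.16838.

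The other comparisons of total level gave few calls. For D against CK, 0 of the 157 loci passed limma's test (background 0.0485%), with 1 by DESeq2, 0 by edgeR and 1 without CK-3. An unadjusted p under 0.05 was found in 13 (8.28%), near the 7.66% of all loci. For DSi against D, 0 passed (background 0%), with 2 by DESeq2 and 0 by edgeR, and 11 (7.01%) had an unadjusted p under 0.05, against 7.86% of all loci. The lowest p in both was that of ONT.16527, which did not pass in either (adjusted p = 0.211 and 0.229 by limma) but passed the F-test over 5 groups (adjusted p = 0.0433), with CK the highest in mean. Its totals were 274, 262 and 65.3 CPM in CK, 20.9, 52.3 and 29.8 CPM in D, and 159, 84.6 and 204 CPM in DSi. D lay below both groups without overlap, and its isoforms were divided between 2 reference IDs.

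For DB against D, 2 of the 157 loci passed, both higher (background 0.325%, of which 0.239% higher and 0.0859% lower). ONT.17074 was at 64.3, 78.6 and 108 CPM in DB and 28.4, 34.9 and 39.8 CPM in D, a ratio of 2.43 (limma, adjusted p = 0.0358). ONT.4990 was at 98.3, 93.9 and 94.7 CPM in DB and 41.0, 65.8 and 43.8 CPM in D, a ratio of 1.91 (adjusted p = 0.0431). Neither pair of groups overlapped, and both loci also passed for DBSi against D, which shares the D libraries, with ratios of 2.02 and 1.87. The 2 calls in DB were unstable. The count was 0 without CK-1, D-1, D-3, DB-2, DB-3, DSi-1, DSi-2 or DBSi-2 and 1 without D-2, DB-1, DSi-3, DBSi-1 or DBSi-3, and DESeq2 gave 8. The background given is that of limma with every library, and it does not apply to these counts. Over all 5 groups, limma's F-test called 13 of the 157 loci (8.28%, background 3.94%), and 8 without DBSi-3. That share was near the 8.2% of the 1464 loci tested with 4 to 7 isoforms. DBSi had the highest mean in 8 of these 13, CK in 3 and DB in 2, which was not counted for the other called loci.

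The balance between the top isoform and the rest, tested as log2((top + 1)/(rest + 1)) in CPM, differed in 3 loci for DBSi against D (background 0.373% of 5361 loci), 2 lower and 1 higher. ONT.9218 (9 isoforms, Glyur000274s00012540) gave up most of its dominance. Isoform ONT.9218.3 held 32.9, 39.7 and 37.2% of the locus's reads in DBSi, and 89.7, 92.4 and 90.5% in D. It held 79.6 to 81.9% in CK, 73.9 to 94.1% in DB and 75.9 to 89.4% in DSi, so the DBSi libraries lay apart from the other 12. The log2 ratio fell by 3.69 ± 0.47 (SE), with an adjusted p of 0.00635 by limma, and the call held under all 20 alternatives. The level of ONT.9218.3 itself was 30.4 ± 13.9 CPM in D and 27.8 ± 19.5 CPM in DBSi (SD, n = 3). Isoform ONT.9218.4 was at 1.43, 0.66 and 0 CPM in D and at 41.5, 9.98 and 8.69 CPM in DBSi, and ONT.9218.6 at 0, 0 and 2.13 CPM and at 29.4, 4.85 and 10.2 CPM. The number of isoforms among 30 reads was 2.79 ± 0.29 in D and 5.46 ± 0.45 in DBSi.

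The top isoform of ONT.10443 held 67.1, 66.6 and 59.9% of its reads in D and 44.0, 40.3 and 45.0% in DBSi, and no library outside DBSi was under 58.4%. Its log2 ratio fell by 1.26 ± 0.23 (limma, adjusted p = 0.0394). Isoform ONT.10443.9, the second in rank, went from a mean of 80.4 ± 14.4 CPM in D to 221 ± 36.8 CPM in DBSi, while the top isoform was at 210 ± 38.3 and 236 ± 24.5 CPM. Both of these isoforms were matched to the same reference ID. In ONT.244 the top share went the other way, from 45.9, 44.5 and 55.2% in D to 76.9, 68.7 and 67.8% in DBSi (log2 ratio 1.37 ± 0.26 higher, adjusted p = 0.0479). DB-3 at 67.3% lay just under the DBSi libraries. These 2 calls depended on the fit. The count of 3 was 1 without CK-3, D-1, D-2, DB-1, DB-2, DB-3, DSi-3, DBSi-1, DBSi-2 or DBSi-3. The call for ONT.244 was also lost without CK-1, CK-2, D-3, DSi-1 or DSi-2, and that for ONT.10443 without D-3.

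In the other contrasts no top isoform ratio passed. D against CK had 0 calls by limma among these loci (background 0.0187%) with 10 at an unadjusted p under 0.05, DB against D 0 (background 0%) with 16, and DSi against D 0 (background 0%) with 8. These are 6.37, 10.2 and 5.1% of the 157, against 5.47, 7.85 and 5.82% of all loci tested. Without D-3, D against CK and DSi against D had 1 each. ONT.8793 had the lowest p in all 3, with adjusted p of 0.731, 0.0861 and 0.461 by limma. Its top share was 91.3, 87.4 and 89.3% in D, 74.3 to 81.3% in CK, 59.8 to 75.2% in DB and 74.7 to 79.0% in DSi, so the D libraries lay above all others of these groups. The rows under its reference ID held 12.4% of that gene's reads. The F-test over 5 groups called 1 locus, ONT.9218 (adjusted p = 0.0303 by limma, background 0.242%), and 0 without D-1, D-2, DBSi-1, DBSi-2 or DBSi-3. Without D-3 the count was 1, but ONT.9218 did not pass.

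The number of isoforms among 30 reads passed limma's test in 0 of 154 loci in all 5 tests. The backgrounds over 4208 loci were 0.19% for the F-test, 0.0238% for D against CK, 0.0951% for DB against D (0.0475% higher and 0.0475% lower), 0.0238% for DSi against D and 0.214% for DBSi against D. Unadjusted p-values were under 0.05 in 20, 9, 9, 9 and 23 loci in that order. For D against CK, DB against D and DSi against D that is 5.84% each, near the 5.37, 5.54 and 5.25% of all loci tested. For the F-test it is 13% against 7.56%, and for DBSi against D 14.9% against 8.03%. No count model was run on this number. ONT.17074 came nearest in DBSi against D, with 5.5, 6.04 and 7.38 isoforms in DBSi and 4.03, 3.91 and 4.18 in D (adjusted p = 0.0748 by limma), groups that did not overlap. ONT.8793 had the lowest p in DB against D, with 5.84, 4.75 and 7.20 isoforms in DB and 3.30, 3.60 and 3.33 in D (adjusted p = 0.131). With 1 library left out, 1 locus passed the F-test without CK-3 or DB-2, 1 passed in DB against D without DB-2, and 1 passed in DBSi against D without DB-1, DB-2, DSi-1, DSi-2 or DBSi-1.

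Isoform use asks whether the isoforms of a locus changed unequally, whichever of them leads, and was tested per locus with limma's diffSplice. For DBSi against D, 10 of the 157 loci passed (6.37%), against a background of 1.23% of 5138 loci and 2.19% of the 1413 loci with 4 to 7 isoforms. The number was 5 without DBSi-3. Beside ONT.9218 and ONT.10443 these were ONT.13309, ONT.16968, ONT.7442, ONT.8535, ONT.3881, ONT.17325, ONT.17809 and ONT.5821. The test pools its spread over the rows of a locus and treats these rows as independent, though rows of a locus can replace each other. Its p-values may therefore be too low, and its power grows with the number of rows. Loci with more isoforms have more reads and more isoforms that can differ, and the part of depth or row number in these shares was not tested.

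**Figure D3:**
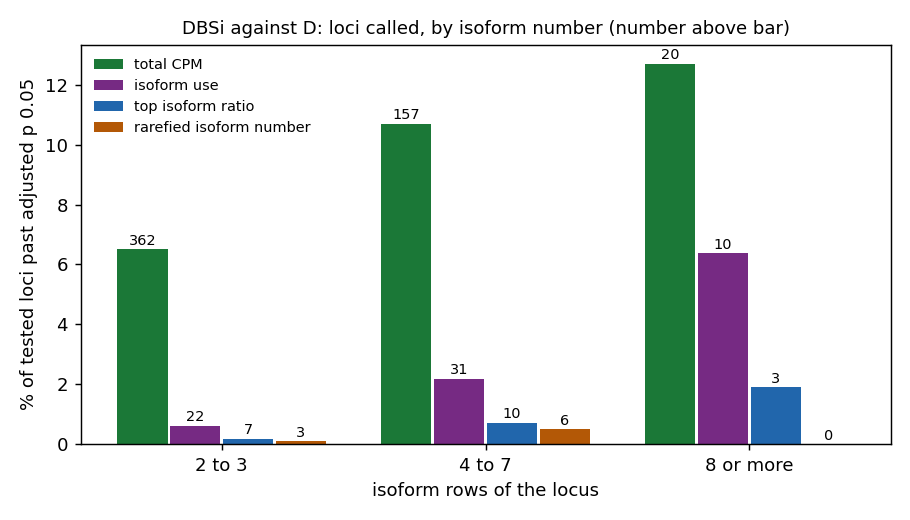
Percent of tested loci with an adjusted p under 0.05 for DBSi against D, by number of isoform rows and by measure, with the number of loci above each bar. Total CPM rises from 6.51% to 10.7% and 12.7% over the 3 classes and isoform use from 0.617% to 2.19% and 6.37%, while the number of isoforms among 30 reads gives 3, 6 and 0 loci.

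In ONT.13309 the rise in total was carried largely by 1 isoform. ONT.13309.1 was at 7.17, 5.59 and 4.25 CPM in D and at 267, 214 and 265 CPM in DBSi, and its share of the locus went from 7.79 ± 4.43% to 56.7 ± 4.09% (SD, n = 3). Its level in DSi-1 was 42.9 CPM, against 7.80 CPM in DSi-2 and 13.4 CPM in DSi-3. ONT.13309.4, the leading isoform in CK, D and DSi, was at 29.5 to 46.1 CPM in D and 111 to 157 CPM in DBSi. ONT.13309.14 was at 17.8, 51.7 and 21.9 CPM in D and 12.3, 18.5 and 21.4 CPM in DBSi, where its share was 3.98%, against 35.3% in D. The locus had an adjusted p of 8.45e-08 by diffSplice and passed in all 19 alternatives.

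ONT.8535 (8 isoforms, Glyur000237s00014406) changed in makeup while its total rose 3.41-fold. Its top isoform held 71.0, 79.3 and 74.8% of reads in D and 32.2, 51.3 and 43.5% in DBSi, below all other libraries. ONT.8535.2 was at 0.29, 0.33 and 1.52 CPM in D and at 16.5, 24.5 and 29.8 CPM in DBSi. The adjusted p was 0.00115 by diffSplice, and the locus passed in all 19 alternatives. In ONT.7442, ONT.7442.7 was at 18.4, 0 and 3.95 CPM in D and at 239, 210 and 192 CPM in DBSi, while the leading isoform in D, ONT.7442.8, was at 26.4, 33.2 and 29.8 CPM in D and 44.5, 52.2 and 89.4 CPM in DBSi. ONT.7442 (adjusted p = 3.77e-05 by diffSplice) did not pass without D-2.

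In 2 of the loci with very high totals the change was in minor isoforms. ONT.17809.12 was at 51.02, 58.9 and 62.0 CPM in D and at 10.2, 17.96 and 0 CPM in DBSi, where its share was 0.46%, against 3.61% in D. No library outside DBSi had under 30.45 CPM of it. ONT.17325.1 was at 4.59, 7.90 and 0 CPM in D and 30.6, 27.4 and 61.1 CPM in DBSi, 1.92% of the locus. DB-2 at 27.9 CPM reached the DBSi range. Their adjusted p by diffSplice were 0.0106 and 0.00695. ONT.17809 did not pass without D-1, D-3 or DBSi-3, nor ONT.17325 without D-3 or DBSi-3 or by edgeR. In ONT.5821 (adjusted p = 0.0352) ONT.5821.1 went from 0, 3.95 and 0 CPM in D to 13.5, 12.8 and 9.62 CPM in DBSi. ONT.5821 did not pass without D-1, D-3, DSi-2, DBSi-1, DBSi-2 or DBSi-3, with a filter at 5 CPM or by edgeR, nor ONT.9218 without DBSi-3, nor ONT.10443 without DBSi-2.

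ONT.16968 (10 isoforms, Glyur001272s00032529) had totals and top shares that overlapped between the groups, while 1 isoform appeared as another shrank. ONT.16968.1 had 82, 142 and 273 reads in the 3 DBSi libraries and 0 in the other 12, where the locus had 11518 reads. By counting alone, with these 12 libraries pooled, that allows a share of up to 0.026%. The limit leaves out the spread between libraries, so the true one is wider. ONT.16968.9 was at 104, 104 and 92.7 CPM in D and at 67.0, 57.3 and 0 CPM in DBSi. The sum of both isoforms was 91.6, 97.8 and 84.7 CPM in DBSi and 85.0 to 140 CPM elsewhere. Both isoforms were read in DBSi-1 and DBSi-2, and ONT.16968.9 was absent from DBSi-3. The adjusted p was 8.45e-08 by diffSplice, but the locus did not pass without DBSi-1, DBSi-2 or DBSi-3. ONT.16968.1 was the only one of 13 isoforms with 30 or more reads confined to 1 group that had reads in all 3 libraries of that group, and 11 of the 13 had reads in 1 library.

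**Figure D4:**
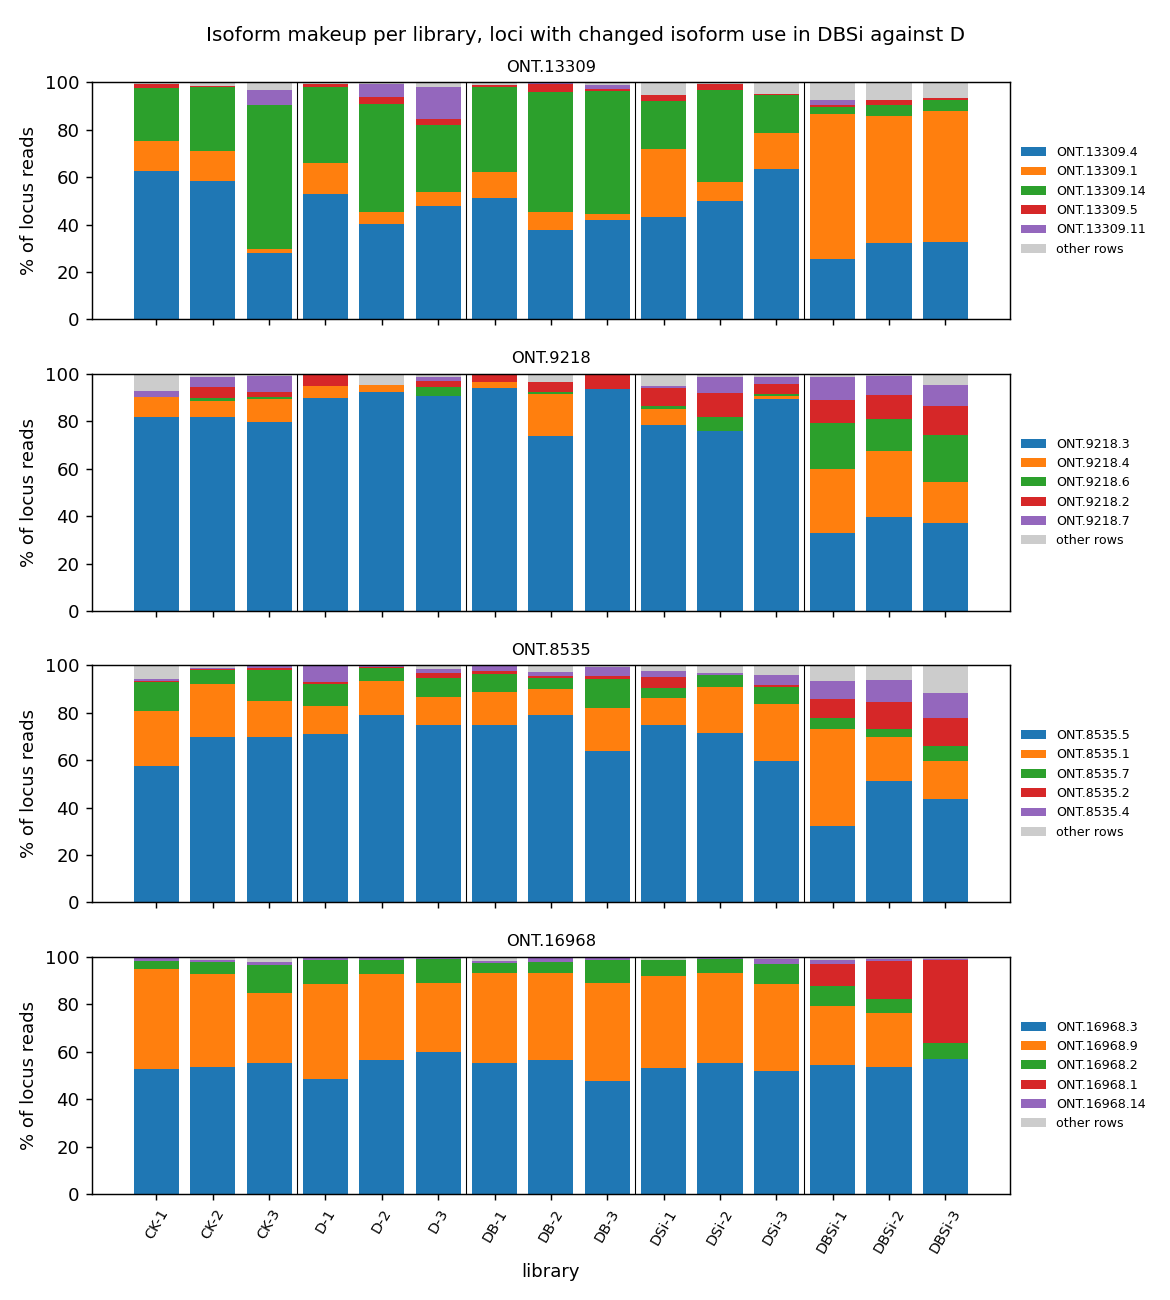
Share of the locus's reads held by its 5 highest isoforms and by the other rows (grey) in each of the 15 libraries, for 4 loci called for isoform use in DBSi against D. In DBSi, ONT.13309.1 holds 56.7% on average, ONT.9218.3 and ONT.8535.5 fall below all other libraries, and ONT.16968.1 appears where ONT.16968.9 shrinks.

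Isoform use differed in fewer loci in the other contrasts. For D against CK, 2 loci passed by diffSplice (background 0.272%), ONT.3881 (adjusted p = 0.0084) and ONT.18769 (0.0399). ONT.3881.1 was at 26.9, 20.4 and 20.1 CPM in D, at 0, 0 and 8.42 CPM in CK, at 9.02, 0 and 0 CPM in DSi, and at 0 in every DB and DBSi library. ONT.3881.7 was at 0, 16.8 and 17.1 CPM in CK, 48.7, 0 and 55.9 CPM in DB, and 0 in every other library. The groups of ONT.3881.7 thus overlapped at 0, while ONT.3881.1 was higher in each D library than in any other. ONT.3881 was also the 1 locus called for DB against D (adjusted p = 2.39e-06, background 0.35%) where it passed in all 19 alternatives. Its call for DBSi against D (adjusted p = 0.00206) was lost by edgeR. Its whole level was 240 to 290 CPM in D and 211 to 260 CPM in CK. ONT.18769.9 was at 0, 6.83 and 0 CPM in CK and 13.2, 17.8 and 11.2 CPM in D, without overlap.

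These calls moved with single libraries. The count for D against CK was 0 without D-1, 3 without CK-3, and 1 without CK-1, CK-2, D-2, D-3, DB-1, DB-2, DB-3, DSi-3 or DBSi-1. ONT.3881 did not pass there without CK-2, D-1, D-2 or D-3, and by edgeR neither locus passed. For DB against D the count was 2 without D-1 or D-2 and 4 without DB-1. For DSi against D, 0 passed (background 0.175%), with 16 (10.2%, against 7.28% of all loci) at an unadjusted p under 0.05 by diffSplice and 0 by edgeR, but 3 without D-1 and 1 without CK-3, D-2, D-3, DB-2, DSi-1 or DSi-2. ONT.8576 had its lowest p (adjusted p = 0.0772).

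Top shares also varied between libraries of 1 group. The SD of the top share between libraries of a group had a median of 7.60 percentage points over the 157 loci, against 2.79 points from counting error alone, and it was above the counting error in 154. Libraries of separate plants can exceed counting error, and the variation between groups was not set against this SD. The largest were 45.2 points in ONT.18565, 40.6 in ONT.7351 and 32.5 in ONT.9331, loci singled out after their values were seen.

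In ONT.18565 a pair of isoforms replaced each other from library to library. ONT.18565.3 was at 93.9, 61.5 and 0 CPM in CK, 64.5, 93.1 and 48.9 CPM in D, and 55.9, 93.9 and 0 CPM in DB. ONT.18565.2 was at 15.2, 0 and 81.0 CPM in CK, 0, 0 and 30.4 CPM in D, and 11.4, 0 and 49.4 CPM in DB. Where 1 was absent the other held nearly the whole locus, also in DSi-1, DSi-3 and DBSi-2. Their sum was 49.4 to 109 CPM in the 15 libraries. ONT.18565.3 was at 0 in 4 libraries and ONT.18565.2 in 5, and each of the 5 groups had a library without 1 of them. Whether the plants differed in these isoforms, or reads were assigned to rows differently between libraries, was not tested. In ONT.7351, ONT.7351.3 was at 0 in CK-1, D-2, DSi-2, DSi-3 and DBSi-1, where ONT.7351.2 was at 6.92 to 24.0 CPM, though rows under its reference ID held 50.5% of that gene's reads.

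Such present-or-absent rows were common. A row was counted when it had 50 or more reads in 1 library and 0 in another of the same group, with 50 or more reads of the locus in both. Of 549 rows of the 157 loci that reached 50 reads in a library, 141 did so (25.7%), in 66 loci. The share was 20.1% of 2371 rows at 4 to 7 isoforms and 10.5% of 4635 at 2 to 3. A row at 0 counts only where other rows of its locus hold 50 or more reads, which the rows in the denominator need not meet. Loci with fewer isoforms were lower and more dominated by 1 row. The order of the classes was therefore in part set in advance. Such rows were found 59 times in CK and 41 (DSi) to 52 (DB) times in the droughted groups, with 46 for D and 50 for DBSi. ONT.15083.4 was one of the highest, at 0 in D-1 and DB-3 and at 265 to 1050 reads in the other 13 libraries. The tests of isoform use take their spread from libraries of a group, in which such rows stand at 0 in one and at 50 or more reads in another.

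**Figure D5:**
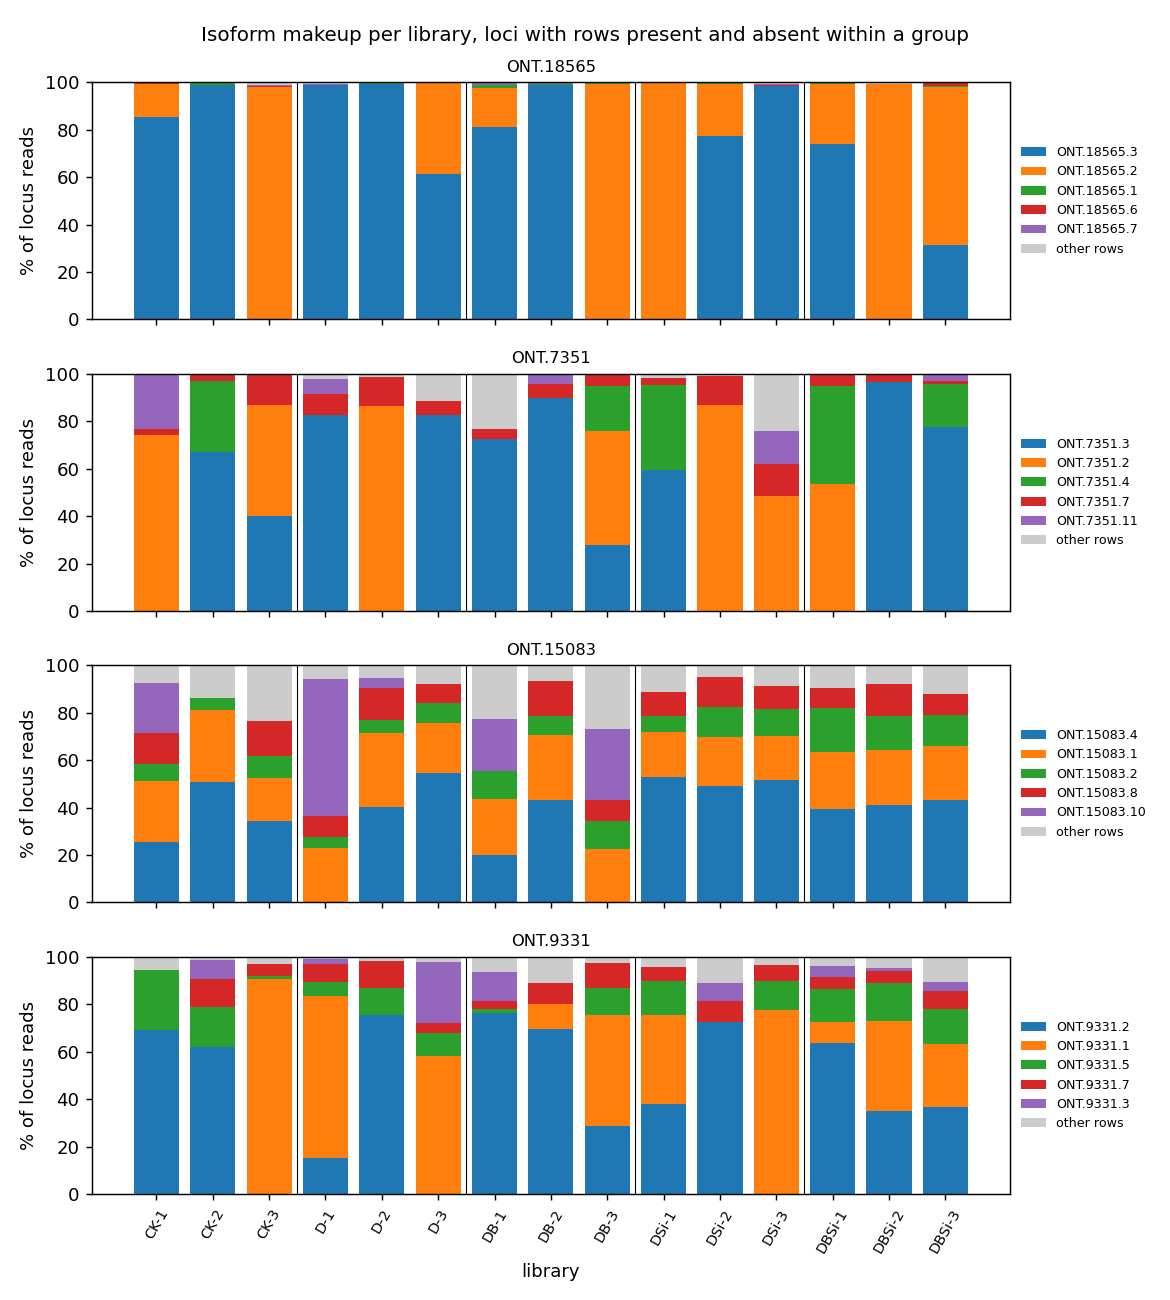
Share of the locus's reads held by its 5 highest isoforms and by the other rows (grey) in each of the 15 libraries, for 4 loci in which isoforms were present in some libraries of a group and absent in others. ONT.18565.3 and ONT.18565.2 replace each other in CK, DB, DSi and DBSi, while ONT.18565.3 leads in every D library. ONT.7351.3 is at 0 in 5 libraries, ONT.15083.4 is at 0 in D-1 and DB-3, and the top isoform of ONT.9331 is at 0 in CK-3, D-3 and DSi-3.

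The leading isoform was the same in all 5 groups (by group mean) in 116 of the 157 loci and in all 15 libraries in 70. In the 41 loci where it differed, the median top share was 40.4%, against 58.6% in the 116, so the leader was often close to the next isoform. D alone had another leader than the other 4 groups in 8 loci, DB in 6, DSi in 5, DBSi in 4 and CK in 3. No count over other loci is given beside these and no test was run on them. Their order cannot be read as a difference between groups. The 4 with the highest totals were ONT.15054, where CK led with ONT.15054.15 and the others with ONT.15054.1, ONT.7442, ONT.15083 and ONT.19824. ONT.7442 was led by ONT.7442.8 in CK, D and DB, by ONT.7442.1 in DSi and by ONT.7442.37 in DBSi, where that isoform was at 379, 187 and 256 CPM and ONT.7442.1 at 279, 238 and 266 CPM. The ranges of these isoforms overlapped within DBSi, and the lead between them is not set by these libraries.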

How the data were processed

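Per the labels' protocols, RNA of whole plants was reverse transcribed, amplified by 14 cycles of PCR and read on a nanopore instrument. The reads carry no molecular identifiers, so PCR copies of 1 molecule are not independent, and counting errors and limits cover counting only. The authors deposited CPM values per gene and per isoform, per the file headers with 1 column per library. The tool minimap2 is named, without its role, in the labels, per the submitters' processing notes. How reads were counted, on which build, with what rule for strand and near-identical copies, and with which software release is not given in the sources used here.

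Dividing every CPM value by that of a single read gave whole numbers to within 0.01 (100% of values), and reads were recovered from this for shares, drawn isoform numbers and the matching of loci to gene rows (50 or more reads). Totals were tested with limma 3.58.1 in R 4.3.3 on log2(CPM + 1), with 1 CPM or more in 3 libraries, the ratio of the top isoform at a mean of 10 CPM or more, and the isoform number at 30 reads or more in every library. All 15 libraries and 5 groups entered 1 fit with an intensity trend, two-sided. Log2 differences understate changes of low loci. edgeR 4.0.16 and DESeq2 1.42.0 on recovered reads were alternatives. The trend for the isoform number was added after a test on simulated data.

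The members, lists and tests were chosen with earlier results of these data known. Loci were named by fixed rules: most rows, highest totals, top shares and effective numbers, up to 2 called loci per direction with no overlap, 3 by the F-test, or the lowest p where none passed. For isoform use all called loci were named, which departs from that rule, and isoforms given for them were picked after their values were seen. Gene lists could not be run because IDs carry no names.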

Additional observations from a re-analysis of the deposited data

How the results depend on the processing

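For total level and top isoform ratio, no call of a named locus in a contrast of groups changed direction in the alternatives. The F-test and isoform use give no direction, so a change of direction could not be seen in them. Under median-of-ratios scaling the median log2 difference of the 157 loci changed sign for D against CK (-0.027 to 0.055) and DSi against D (0.064 to -0.0065). With all 15 libraries, counts of called loci moved by over 1.5 times as follows, and in each case the cause was not tested. The backgrounds given above are those of the main fits. Shares over all loci are not given for the alternatives or for fits with a library left out. Their counts therefore cannot be read as particular to these loci. By DESeq2 the total level gave 32 (F-test), 1 (D against CK), 8 (DB against D) and 2 (DSi against D) loci, and DB against D gave 1 by edgeR and 1 with no filter. The top isoform ratio at a mean of 30 CPM or more gave 2 (F-test), 1 (DB against D) and 5 (DBSi against D), as untransformed percent 3 (F-test) and 6 (DBSi against D), and with a pseudocount of 0.5 1 (DBSi against D). The isoform number on a linear scale gave 1 (DBSi against D). Isoform use gave 0 by edgeR for D against CK and 2 with a filter at 5 CPM for DB against D. With the 73 loci of 10 or more isoforms, chosen after seeing the data and fewer by construction, total level gave 6 (F-test), 0 (DB against D) and 9 (DBSi against D), the ratio 0 (F-test) and 0 (DBSi against D), and isoform use 0, 0 and 5 for D against CK, DB against D and DBSi against D.

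Leaving out each library in turn gave, for total level, 8 to 15 loci (F-test), 0 to 1 (D against CK), 0 to 2 (DB against D), 0 (DSi against D) and 11 to 22 (DBSi against D). The ratio gave 0 to 1, 0 to 1, 0, 0 to 1 and 1 to 3 in that order, the isoform number 0 to 1, 0, 0 to 1, 0 and 0 to 1, and isoform use 0 to 3 (D against CK), 1 to 4 (DB against D), 0 to 3 (DSi against D) and 5 to 11 (DBSi against D).

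Same-numbered libraries were not clearly more alike than others, which does not exclude that they were grown or handled together. Deviations of same-numbered libraries correlated at -0.18 to 0.28 over 30 pairs (median -0.03), others at -0.34 to 0.24. With the replicate number as a block, total level gave 11 loci (F-test), 1 (DB against D) and 17 (DBSi against D), and the ratio 0 (F-test) and 1 (DBSi against D). Depth limits rows of few reads, and 3 loci under 30 reads in a library were left out of the isoform number. Median-of-ratios scaling moved the median of all loci by -0.06 to 0.07 (log2).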
